A study of Zea mays with 4 samples.

Results

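The plastid genome of maize encodes the catalytic core of the photosynthetic complexes together with part of the machinery that transcribes and translates it. The genes described here are the rows that the deposited count tables place on the plastid chromosome (Pt) of the AGPv4 annotation of inbred line B73. There were 179 such rows among 46430 genes. The plastid chromosome carries a large inverted repeat, so 39 genes are listed as 2 copies each and 140 distinct genes remained when a single copy was kept. Of the 179 rows, 157 carried a locus tag that RefSeq pairs with a symbol or a reading frame name, and all 157 had the same coordinates there. The other 22 had no entry and are given by identifier only.

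The study isolated protoplasts, single cells without walls, from the distal 6 cm of leaf 2 of B73 seedlings by enzyme digestion for 3.5 h. It compared their bulk RNA-seq profile with that of undigested segments of the same leaf region. Per the methods, the segments came from sibling plants and were ground under liquid nitrogen at harvest. Protoplasts also went through a pretreatment before digestion and washes after it. Digestion, elapsed time and handling cannot be told apart in this contrast. Each group had 2 pooled libraries, protoplast 1 and protoplast 2 against leaf 1 and leaf 2, all of B73 plants with no other treatment named in the labels. The labels give 6 plants per pool and the methods 4 leaves. The copy of leaf 1 used here held 18609 intact genes and 0 plastid rows, so leaf 2 was the only leaf library for every value below. Total counts were 47061988 in protoplast 1, 42815615 in protoplast 2 and 41792981 in leaf 2, at which 3 counts corresponded to 0.0637, 0.0701 and 0.0718 CPM (the count of a gene scaled to the total of its library).

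In a C4 leaf such as that of maize, carbon is first fixed in mesophyll (MS) cells and released in bundle sheath (BS) cells, where Rubisco fixes it again. Plastids of both cell types carry the same genome but differ in their protein complement. Linear electron transport through photosystem II is concentrated in the MS, whereas Rubisco and the NDH complex, which carries cyclic electron flow around photosystem I, are concentrated in the BS. Plastid genes are transcribed in clusters by a plastid-encoded and a nuclear-encoded RNA polymerase, and the long primary transcripts are cut, spliced and trimmed. Most plastid transcripts lack a stable poly(A) tail, while the labels describe the measured molecule as polyadenylated RNA. How far the captured plastid reads represent the plastid RNA pool was not tested.

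Plastid rows took a larger part of the protoplast libraries than of leaf 2. They received 899739 counts in protoplast 1 and 1566803 in protoplast 2, against 425495 in leaf 2. As a percentage of the library total, with repeat copies counted at both places, this was 1.91% in protoplast 1 (exact 95% binomial interval 1.91 to 1.92%) and 3.66% in protoplast 2 (3.65 to 3.67%), against 1.02% in leaf 2 (1.02 to 1.02%). With 1 copy of each repeat pair the shares were 1.35% and 2.28%, against 0.703%. The intervals describe counting error only and leave out the spread between pools. They also take counts as independent, although repeat reads entered at both copies. Since the reads carried no molecular identifiers, copies of one molecule cannot be recognised either. Both protoplast libraries lay above leaf 2, but 2 libraries against 1 cannot give an exact permutation p under 0.333, so the shares are reported without a test.

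The excess in protoplast 2 over protoplast 1 lay in ribosomal RNA. Genes for ribosomal RNA made up 24.4% of plastid counts in protoplast 1 and 56.6% in protoplast 2, against 49.9% in leaf 2. With these genes set aside, plastid rows held 1.45% of protoplast 1 and 1.59% of protoplast 2, against 0.510% of leaf 2. With rbcL set aside as well, the shares were 1.40% and 1.54%, against 0.296%. The protoplast libraries were thus close to each other, and each was above leaf 2, once ribosomal RNA was left out.

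**Figure D1:**
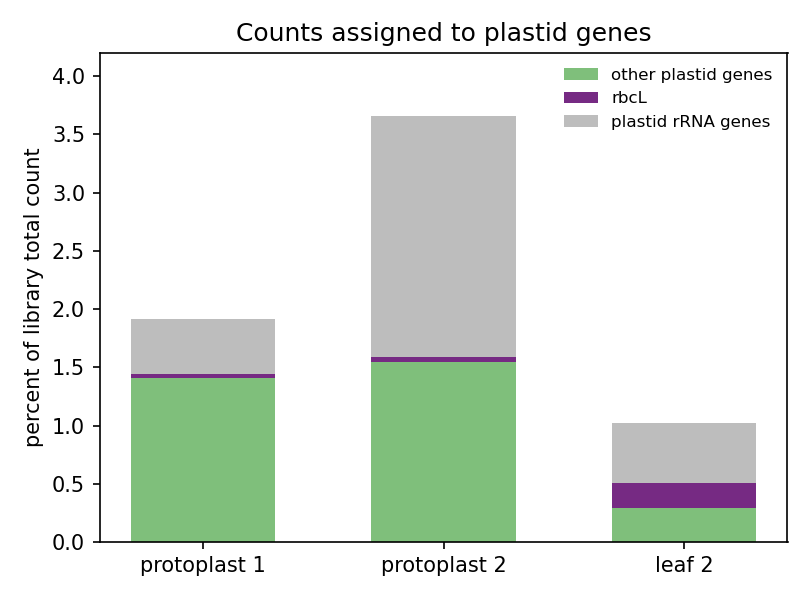
Percent of the total count of each library assigned to plastid genes (vertical axis), split into ribosomal RNA genes, rbcL and all other plastid genes, for protoplast 1, protoplast 2 and leaf 2 (1 bar per library, no error bar). The green segment is 1.40% and 1.54% in the protoplast libraries and 0.296% in leaf 2, whereas the purple rbcL segment is visible mainly in leaf 2.

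To compare single genes, counts of all genes in the 3 complete libraries were fitted with edgeR's quasi-likelihood test after scaling with trimmed mean M-values (TMM). A gene was called when its p, adjusted over all genes by the method of Benjamini and Hochberg, was under 0.05 and its log2 fold change (protoplast over leaf 2) was above 1 or below -1. The lone leaf library is assumed to vary like the protoplast pair. Over all 23262 genes tested, 18.5% were called higher in protoplasts and 20.4% lower, 38.9% in all, with a median log2 fold change of -0.04. Of the 179 plastid rows, 134 passed the filter on low counts, 22 had 0 counts in every library, and 17 of these 22 overlapped another plastid row. Among the 134 tested rows 93 were called higher and 1 lower, and 40 were not called, with a median log2 fold change of 1.94. Counting each repeat pair once, 81 of 112 tested genes were higher and 1 was lower.

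With library totals in place of TMM, 86 rows were higher and 6 lower with a median of 1.54, beside 15.3% higher and 28.6% lower over all genes, while the median of all genes moved to -0.40 and the part of all calls that were higher changed to 34.8% from 47.5% with TMM. With the plastid total of each library as its size, which asks for a change in composition within the plastid set, 0 rows were called in either direction by edgeR (2 higher and 2 lower at an unadjusted p under 0.05), beside 1.04% higher and 8.38% lower over all genes, and the median was 0.18. After leaving ribosomal and transfer RNA out of that total, 22 rows were higher and 21 lower, beside 7.57% higher and 75.6% lower over all genes. Scaling to a plastid total fixes the sum of the rows in that total, so values on it are relative to that sum. It does not fix the median of the plastid rows, which was -0.039 without ribosomal and transfer RNA. With rbcL left out of the total too, the median was -0.80.

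Protein genes with a standard symbol numbered 75, of which 74 were tested. By edgeR's quasi-likelihood test, 64 of the 74 were higher in protoplasts, 1 was lower and 9 were not called, with a median log2 fold change of 2.05. The 24 genes for RNA polymerase subunits and ribosomal proteins had a median of 2.91 and 23 were called higher. The 44 tested genes for photosystems, cytochrome b6f, ATP synthase and NDH had a median of 1.95 and 36 were called higher. No test was made of the difference between these lists.

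**Figure D2:**
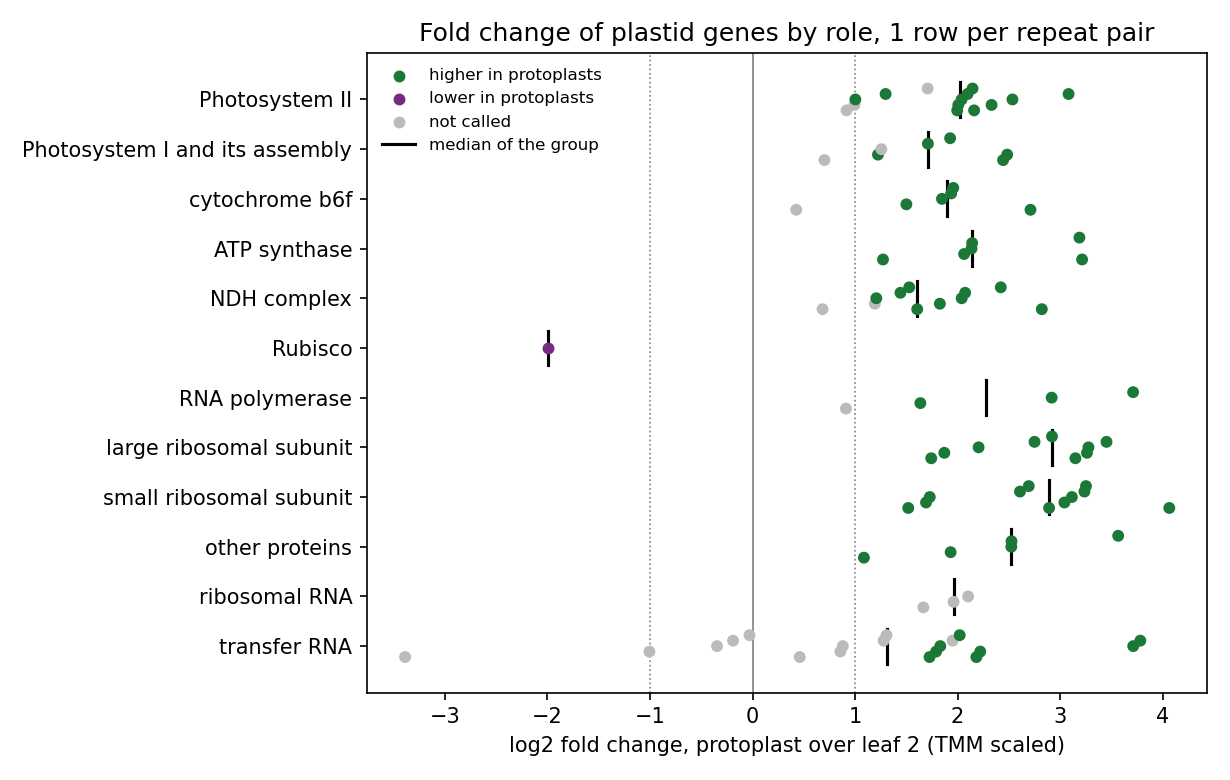
Fitted log2 fold change of each tested plastid gene, protoplast over leaf 2 (horizontal axis), by role group (vertical axis), with 1 copy of each repeat pair; black bars are group medians, dotted lines mark -1 and 1, and colours give the call. Nearly all protein genes sit right of 1, rbcL stands alone at -2.00, and the ribosomal protein groups centre at 2.92 and 2.89.

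Rubisco was the exception. The gene rbcL (ZemaCp032, plus strand of Pt from 56874 to 58304, AGPv4) encodes the large subunit of Rubisco, the carboxylating enzyme that C4 leaves confine to the BS. It had 19442 counts in protoplast 1 and 17865 in protoplast 2, against 89530 in leaf 2. In CPM these were 413 and 417, against 2142. The protoplast libraries differed from each other by far less than from leaf 2, and rbcL was the only named protein gene that fell in protoplasts, with a log2 fold change of -2.00 ± 0.32 (SE; adjusted p = 0.000770, edgeR's quasi-likelihood test, adjusted by the method of Benjamini and Hochberg). It made up 2.16% and 1.14% of plastid counts in the protoplast libraries, against 21.0% in leaf 2.

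Genes that mark the BS moved in the same direction as rbcL, but most fell by more. Of the 12 BS genes of C4 metabolism in the list used here, 11 were lower in protoplasts and 0 higher, with a median log2 fold change of -5.42, none was at 0 in any library, and their summed level was 1315 and 1177 CPM in the protoplast libraries, against 36845 CPM in leaf 2. Among them, the nuclear genes RBCS2 and RBCS1 for the Rubisco small subunit had log2 fold changes of -5.85 and -5.44. Of the 6 MS genes, 0 were called in either direction by edgeR and 0 had an unadjusted p under 0.05, with fold changes between -0.15 and 0.67 on the log2 scale and a summed level of 65962 and 62447 CPM, against 71298 CPM. In bulk samples, fewer cells of a type and less RNA per cell cannot be told apart, and the part of BS loss in the fall of rbcL was not tested. One BS list member, the nuclear row named RBCL, had counts and a fold change like those of rbcL, at 23527 and 20672 counts, against 113373, and a mitochondrial row listed as rbcL-ct had 2368 and 2159, against 12435. Whether reads are shared between these 3 rows was not tested, as no sequence was compared.

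Photosystem II, which splits water, had 15 genes, of which 14 were tested and 11 were higher in protoplasts, with a median log2 fold change of 2.02. The gene with the most counts was psbM, for a small subunit at the dimer interface, with 36602 and 32787 counts in the protoplast libraries, against 10361 in leaf 2. Its log2 fold change was 2.01 ± 0.36 (SE; adjusted p = 0.00149, edgeR's quasi-likelihood test). Per kilobase of gene length psbM was the highest plastid row of leaf 2, at 7407 and 7293 CPM per kb in the protoplast libraries and 2361 in leaf 2.

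The reaction centre genes of photosystem II had far fewer reads. The D1 protein gene psbA had 1899 and 3549 counts, against 759 in leaf 2, a log2 fold change of 2.16 ± 0.57 (SE; adjusted p = 0.0277, edgeR's quasi-likelihood test). Its 2 protoplast values differed 2.05-fold in CPM, the widest gap among the photosystem II genes with at least 10 counts in each library. The D2 protein gene psbD had 2014 and 2020 counts, against 420, with a log2 fold change of 2.54. The core antenna gene psbC, whose start overlaps the end of psbD, had a log2 fold change of 2.10, while psbB for the other core antenna protein CP47 had 1210 and 1248 counts, against 787, and at 0.92 did not reach the fold limit (adjusted p = 0.0171, edgeR's quasi-likelihood test). The next gene, psbT, had only 22 counts in each protoplast library and 3 in leaf 2, a CPM ratio of 6.82 with an exact 95% counting interval of 2.19 to 34.3. The neighbouring psbN lies on the opposite strand, and because the use of strand in counting is not given in the sources used here, its 22 and 22 counts, against 8, may include reads of psbT and psbH.

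Photosystem I and its assembly factors had 7 genes, 5 of them higher in protoplasts, with a median log2 fold change of 1.71. The reaction centre is a pair of related proteins, PsaA and PsaB. psaA had 5201 and 5526 counts, against 1985 in leaf 2, and rose by 1.71 ± 0.32 on the log2 scale (SE; adjusted p = 0.00225, edgeR's quasi-likelihood test). psaB, 25 bases downstream in the same cluster, had 1027 and 826 counts, against 680, with a log2 fold change of 0.70 that did not reach the fold limit (adjusted p = 0.0296, edgeR's quasi-likelihood test). Protoplast values lay above the leaf value for both genes, and the difference between their fold changes was not tested. The assembly factor gene ycf3, which contains introns, had the most counts of the group at 20807 and 19491, against 4334, and the largest log2 fold change, 2.48.

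The cytochrome b6f complex, which links the photosystems, had 6 genes and 5 of them were higher, with a median log2 fold change of 1.89. Its cytochrome b6 gene petB had 1094 and 1324 counts, against 225 in leaf 2, and a log2 fold change of 2.71. The subunit IV gene petD had the most counts, 1604 and 1573, against 493, and petA for cytochrome f had 396 and 502, against 143. The small subunit gene petN had 116 and 120 counts, against 106, the smallest log2 fold change of the thylakoid genes at 0.43 ± 0.36 (SE; adjusted p = 0.359, edgeR's quasi-likelihood test). petN was not called, whereas the other 5 genes were.

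All 6 plastid genes of ATP synthase were higher in protoplasts by edgeR's quasi-likelihood test, with a median log2 fold change of 2.14. They fell into a high pair and a lower set. The catalytic-head gene atpA had 21750 and 26614 counts, against 3237 in leaf 2, and atpF, for a stalk subunit, had 15610 and 19034, against 2277, with log2 fold changes of 3.19 and 3.21. The membrane ring gene atpH and its neighbour atpI had 2.14 each. The other catalytic-head gene, atpB, had 799 and 726 counts, against 379, and a log2 fold change of 1.27 ± 0.23 (SE; adjusted p = 0.00176, edgeR's quasi-likelihood test), which came to 0.90, under the fold limit, with library totals in place of TMM. atpA and atpB encode subunits that alternate in one ring of the enzyme, and their fold changes differed by 1.92 on the log2 scale, a difference that was not tested.

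The NDH complex had 11 genes, of which 9 were higher and 2 were not called, with a median log2 fold change of 1.61. By edgeR's quasi-likelihood test 0 were lower, also at an unadjusted p under 0.05. With the plastid total without rRNA, tRNA and rbcL as library size, 5 were called lower, beside 83.3% lower over all genes on that scale. The cluster ndhC, ndhK and ndhJ carried most of the reads. ndhC had 17303 and 16847 counts, against 3843 in leaf 2, with a log2 fold change of 2.42, ndhK had 2.07 and ndhJ 2.04. The intron-containing gene ndhB in the inverted repeat had 10229 and 11996 counts, against 1914, and the largest log2 fold change of the group, 2.82 ± 0.38 (SE; adjusted p = 0.000315, edgeR's quasi-likelihood test). A mitochondrial row listed as ndhB-ct had 10055 and 11842 counts, against 1927, so the origin of these reads is uncertain.

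The NDH genes of the small single-copy region had lower counts and smaller differences. ndhD had 852 and 712 counts, against 324, with a log2 fold change of 1.53. ndhI had 59 and 38 counts, against 25, and 1.19 ± 0.53 (SE; adjusted p = 0.0923, edgeR's quasi-likelihood test). ndhE had 30 and 14 counts, against 16. In CPM the protoplast 2 value of ndhE, 0.327, lay below the 0.383 of leaf 2 and the protoplast 1 value, 0.637, above it, so the groups overlapped at this depth.

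**Figure D3:**
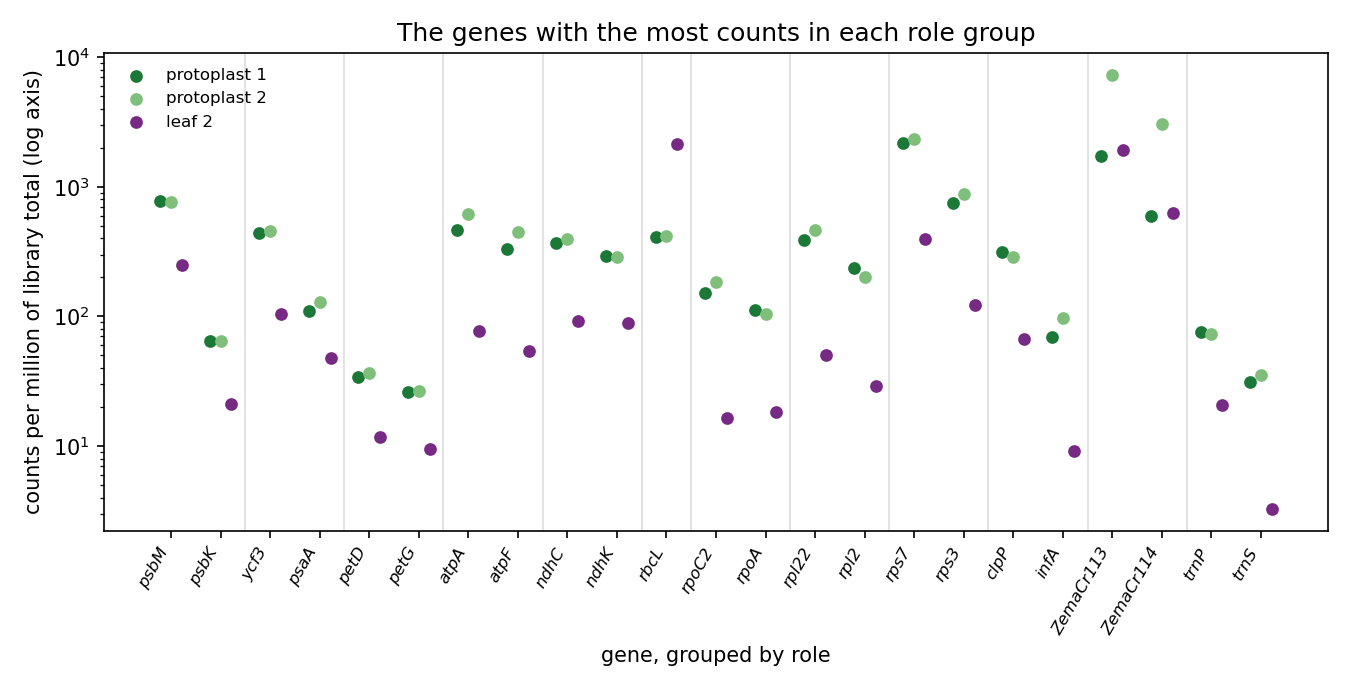
CPM of library total on a log axis for the genes with the most counts in each role group, with 1 point per library for protoplast 1, protoplast 2 and leaf 2 from left to right. Both protoplast points lie above the leaf 2 point for every protein gene shown except rbcL; protoplast 1 lies below leaf 2 for the ribosomal RNA genes ZemaCr113 and ZemaCr114.

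Genes of the ribosome had the highest median fold changes of the role groups. All 9 genes for large-subunit and all 11 for small-subunit ribosomal proteins were higher in protoplasts by edgeR's quasi-likelihood test, with median log2 fold changes of 2.92 and 2.89. The small-subunit protein gene rps7 had the most counts of all plastid protein genes in protoplasts, 101826 and 100358 in the protoplast libraries, against 16422 in leaf 2. Its log2 fold change was 2.89 ± 0.41 (SE; adjusted p = 0.000360, edgeR's quasi-likelihood test). The same caution applies to it as to ndhB, since the mitochondrial row rps7-ct had 88006 and 95899 counts, against 15769.

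The other ribosomal protein genes differed in the size of their fold change. rpl22 had 18321 and 19842 counts, against 2113, and a log2 fold change of 3.45, and rps3 next to it had 35139 and 37815, against 5104, and 3.12. At the low end were rps15 with 222 and 294 counts, against 110, and 1.52, and rpl33 with 1413 and 924, against 412, and 1.74. The largest value belonged to rps14, with 2602 and 6144 counts, against 329, and 4.07 ± 0.93 (SE; adjusted p = 0.0371, edgeR's quasi-likelihood test). Its protoplast values differed 2.60-fold in CPM, the widest gap of any protein gene with at least 10 counts in each library, and it was not called by limma-voom. Both values nevertheless lay above leaf 2.

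Of the 4 subunit genes of the plastid-encoded RNA polymerase, 3 were higher. rpoC2 had 7095 and 7871 counts, against 693 in leaf 2, and a log2 fold change of 3.71 ± 0.38 (SE; adjusted p = 5.26e-05, edgeR's quasi-likelihood test). rpoB had 239 and 173 counts, against 130, and 0.91, which did not reach the fold limit (adjusted p = 0.0338, edgeR's quasi-likelihood test). rpoC1 lies between them and had an intermediate 1.64, and rpoA, in another cluster, had 2.92. All of the remaining 5 named genes were higher. Among them, infA for translation initiation factor 1 had 3242 and 4125 counts, against 380, and 3.57, the protease subunit gene clpP had 14728 and 12340, against 2810, and 2.53, and matK for the maturase inside the trnK intron had 364 and 288, against 183, and 1.09. The value of matK was 0.72, under the fold limit, with library totals in place of TMM.

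Fold changes were also set against position along the chromosome. Pairs were formed from tested named protein genes in their order, skipping all other rows. Some of these pairs lay far apart, such as psbZ and psbM with 5972 bases between them. Between consecutive genes of this order on the same strand the median absolute difference in log2 fold change was 0.46 over 57 pairs. It was 0.71 over 16 neighbouring pairs on opposite strands and 0.84 over all 2701 pairs of the 74 tested protein genes. These are descriptions, and neighbouring genes can share transcripts and reads. In the cluster of rpoA and ribosomal protein genes from rpoA to rpl23, the 12 named protein genes lay between 2.61 and 3.57, and the next named genes on that strand, ndhB and rps7, had 2.82 and 2.89.

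Within other clusters the value changed abruptly. Along the plus strand, rpoB, rpoC1, rpoC2, rps2, atpI, atpH, atpF and atpA had log2 fold changes of 0.91, 1.64, 3.71, 3.25, 2.14, 2.14, 3.21 and 3.19, so neighbouring genes read in one direction differed by up to 2.08. In the cluster of psaA, psaB and rps14, with 144 bases between psaB and rps14, the values were 1.71, 0.70 and 4.07. In the cluster of psbB, psbT, psbH, petB and petD they were 0.92, 3.08, 1.30, 2.71 and 1.96, of which psbT rests on 3 leaf counts. The overlapping genes atpB and atpE had 1.27 and 2.06. Transcript ends cannot be located from counts per gene.

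**Figure D4:**
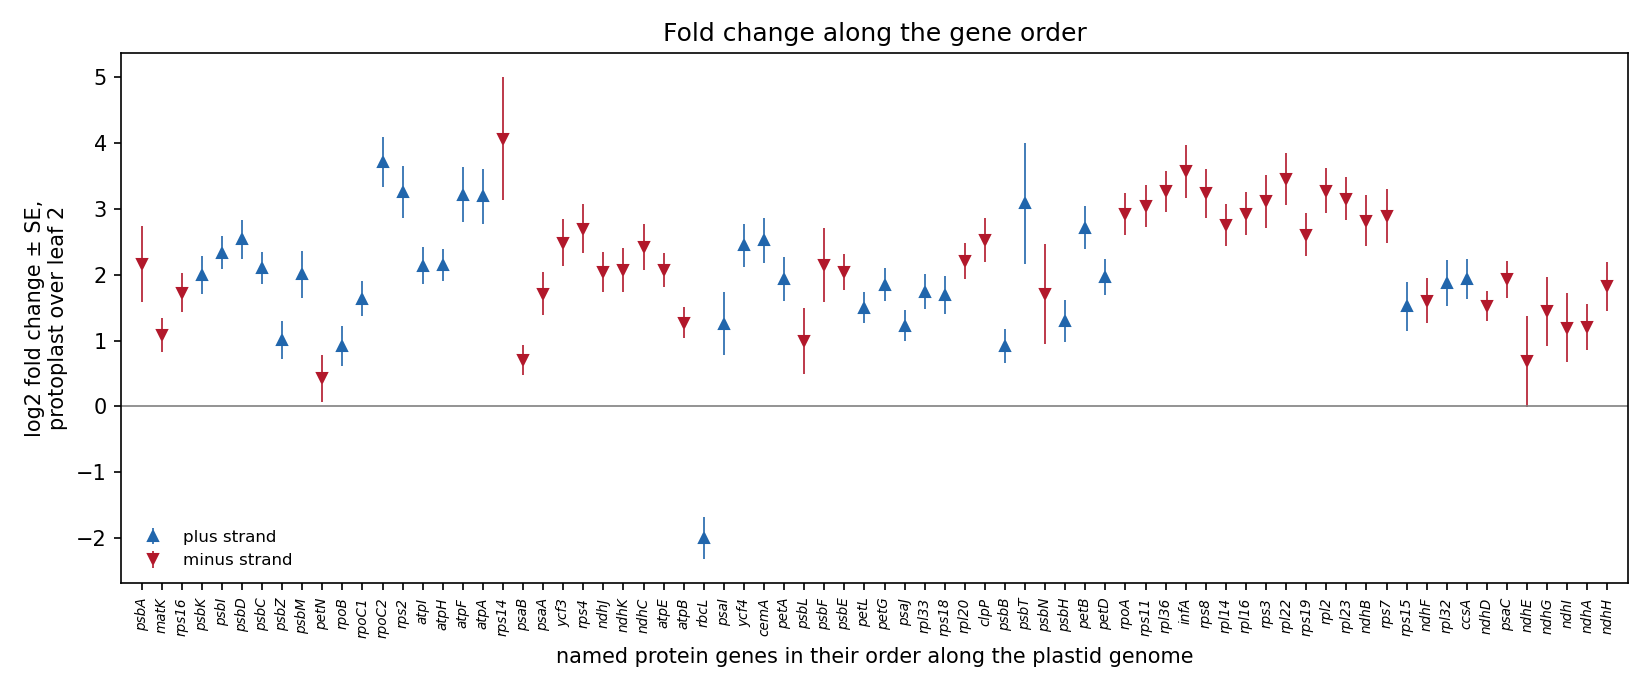
Log2 fold change, protoplast over leaf 2, with its SE (vertical axis) for the 74 tested protein genes in order along the plastid genome (horizontal axis, not to distance), with upward triangles on the plus strand and downward triangles on the minus strand. The genes from rpoA to rps7 form a raised block, rps14 at 4.07 stands beside psaB at 0.70, and rbcL at -2.00 stands between atpB and psaI.

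Scaling to the plastid total without ribosomal and transfer RNA gave the change in composition within the plastid set. Of the 24 polymerase and ribosomal protein genes, 10 were then called higher and 1, rpoB, lower (edgeR's quasi-likelihood test), with a median log2 fold change of 0.97, beside the 7.57% higher and 75.6% lower over all genes on this scale. Of the 44 genes of thylakoid complexes, only atpA and atpF were higher, with values of 1.23 and 1.25, and psbB, psaB and petN were lower, with -1.03, -1.23 and -1.52; their median was 0.01. rbcL had -3.94 on this scale. Since rbcL took 42.5% of that total in leaf 2 and 2.90% and 2.66% in the protoplast libraries, all other genes gain share as rbcL loses it. With rbcL left out of the total too, the medians of the same lists were 0.21 and -0.75, and 2 genes of the first list were higher and 3 lower, while 15 of the second were lower and 0 higher, beside 5.53% higher and 83.3% lower over all genes.

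Ribosomal RNA genes behaved apart from the rest. The 1491-base gene ZemaCr113 had 81648 counts in protoplast 1 and 313412 in protoplast 2, against 79914 in leaf 2. The 2884-base gene ZemaCr114 had 28011 and 130122, against 26232. For both, protoplast 1 and leaf 2 were alike in counts and protoplast 2 stood alone. Fitted log2 fold changes were 1.67 ± 1.22 (SE; adjusted p = 0.361) and 1.96 ± 1.63 (SE; adjusted p = 0.450) by edgeR's quasi-likelihood test, and neither gene was called. ZemaCr113 was called higher with library totals in place of TMM (1.24) and without a filter on low counts (1.62). In CPM, protoplast 1 lay slightly below leaf 2 for both genes, at 1735 against 1912 and at 595 against 628. Of the 4 distinct rRNA genes, ZemaCr115 had 20 and 30 counts, against 7, and was called higher only without a filter (2.07), and ZemaCr116 had 0 in all 3 libraries.

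The gap between the protoplast libraries was 4.22-fold in CPM for ZemaCr113 and 5.11-fold for ZemaCr114. Over the 120 plastid rows with at least 10 counts in every library, the median ratio of protoplast 2 to protoplast 1 was 0.991, and for rbcL it was 1.01. Ribosomal RNA rows picked outside the plastid moved in the same direction. The ratio was 1.99 for mitochondrial rrn26, 1.85 for mitochondrial rrn18, 5.03 for a nuclear large-subunit row and 2.02 for a nuclear 18S row. Other nuclear ribosomal RNA rows were not surveyed. A mitochondrial row listed as rrn16-ct had 112285 and 403147 counts, against 113291 in leaf 2, a ratio of 3.95. Whether it shares reads with ZemaCr113 was not tested, so the origin of the reads of ZemaCr113 is uncertain. Whether the capture of ribosomal RNA differed between the library preparations was not tested.

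**Figure D5:**
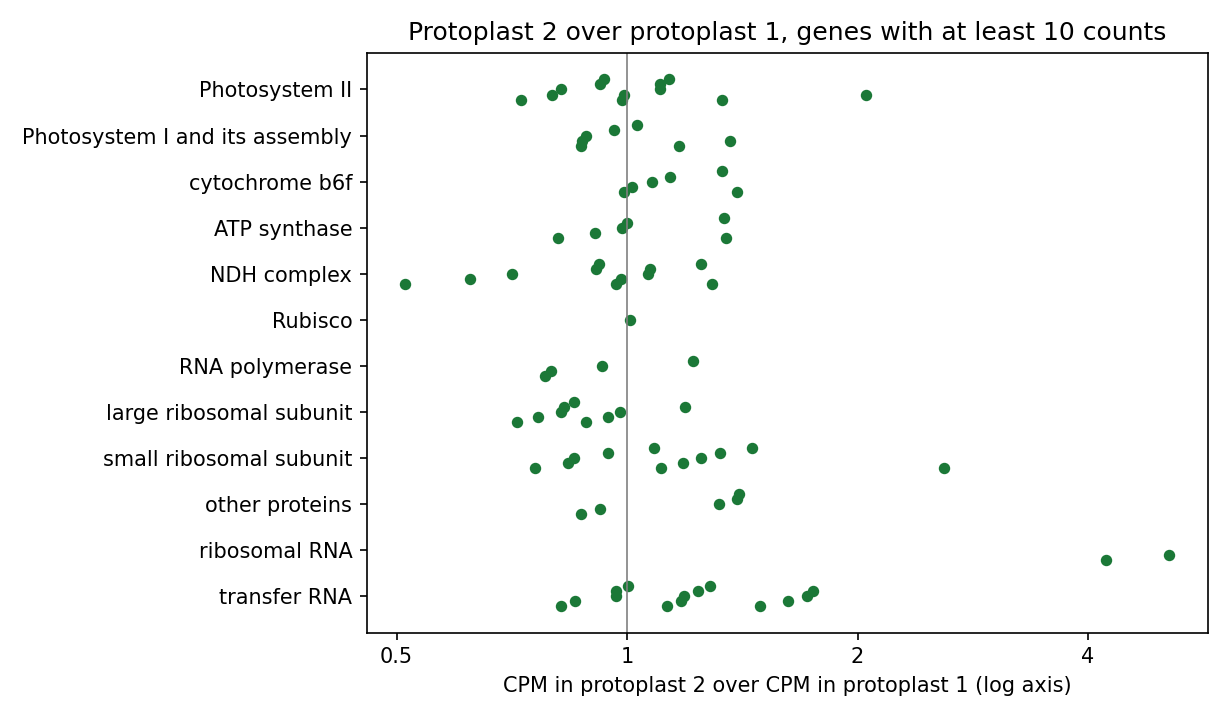
Ratio of CPM in protoplast 2 to CPM in protoplast 1 (horizontal log axis) for plastid genes with at least 10 counts in each of the 3 libraries, by role group, with 1 copy of each repeat pair. Protein genes lie between 0.513 (ndhE) and 2.60 (rps14), while the ribosomal RNA genes ZemaCr113 and ZemaCr114 lie at 4.22 and 5.11.

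Transfer RNA genes, 31 distinct, had few reads. Of the 19 tested, 8 were higher and 0 lower by edgeR's quasi-likelihood test, with a median log2 fold change of 1.31. The proline tRNA gene trnP had 3589 and 3155 counts, against 867 in leaf 2, and 2.22, and the serine tRNA gene trnS next to rps4 (ZemaCt135) had 1468 and 1508, against 137, and 3.71. Some went the other way without being called. The alanine tRNA gene trnA in the repeat had 24 and 27 counts, against 62, and -1.01 ± 0.50 (SE; adjusted p = 0.132, edgeR's quasi-likelihood test). The tyrosine tRNA gene trnY had 0 and 2 counts, against 14, a CPM ratio of 0.0664 with an exact 95% counting interval of 0.00733 to 0.289. These decreases were called in some alternatives, trnA with library totals and trnY also with limma-voom and without a filter on low counts.

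Several rows lie inside introns of other plastid genes. The unnamed row ENSRNA049479657 in the atpF intron had 21835 and 34272 counts, against 3478 in leaf 2, and a log2 fold change of 3.32, beside 3.21 for atpF. The row ENSRNA049479776 in a ycf3 intron had 846 and 618 counts, against 226, and 1.94, beside 2.48 for ycf3. ENSRNA049479745 in the ndhB intron had 11 and 10 counts, against 25, and -0.98 ± 0.69 (SE; adjusted p = 0.277, edgeR's quasi-likelihood test), beside 2.82 for ndhB. The reading frame ZemaCp157 in the trnA intron had 143 and 127 counts, against 265, and -0.71 ± 0.29 (SE; adjusted p = 0.0689, edgeR's quasi-likelihood test), beside -1.01 for trnA. ZemaCp156 in the trnI intron had 73 and 80 counts, against 124, and trnI itself had 0 in all 3 libraries. In the ndhB, trnA and trnI introns both protoplast counts lay below the leaf count, but none of these rows was called. Of the rows named here with a counted host, the one in ndhB differed from its host in sign, and the difference between row and host was not tested.

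The largest log2 fold change of any plastid gene belonged to the unnamed reading frame ZemaCp064 (225 bases, minus strand of Pt from 82689 to 82913, AGPv4), which lies between rps19 and rpl2 and has a copy, ZemaCp111, in the other repeat arm. It had 1002 and 862 counts, against 24 in leaf 2, and 5.53 ± 0.31 (SE; adjusted p = 1.87e-06, edgeR's quasi-likelihood test). Its neighbours rps19 and rpl2 had 2.61 and 3.28. The gap from its neighbours did not come from one protoplast library, since the CPM values were 21.3 and 20.1, against 0.574. A mitochondrial row listed as orf247-ct had 750 and 668 counts, against 5. The tRNA gene trnH (ZemaCt143, 82800 to 82874) lies inside ZemaCp064 on the opposite strand and had 0 counts in every library. How strand and overlaps were handled in counting is not given in the sources used here. The counts of ZemaCp064 may hence include reads of trnH or of transcripts from its neighbours, which was not tested. Of 16 distinct unnamed reading frames, 9 were tested and 5 were higher by edgeR's quasi-likelihood test.

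Copies of the inverted repeat cannot be told apart by their reads. Of the 11 repeat pairs with at least 100 counts in each library, 9 had counts within 1% of each other in all 3 libraries, so reads that map to several places appear to have been counted at each of them. The exceptions were rps19, with 8618 and 6677 counts in the protoplast libraries and 1493 in leaf 2 for one copy, against 5302, 3887 and 1053 for the other, and rps15, with a gap of up to 3.67%. Mitochondrial rows whose names end in -ct, 28 in number, took 89.5% and 91.5% of all mitochondrial counts in the protoplast libraries and 91.7% in leaf 2. Their counts were near those of the plastid row of the same name for rps7 and ndhB, but not for rpl23, rpl2, rps19 or rbcL. The rpl23-ct row had 6 and 4 counts, against 1 in leaf 2, beside 4916 and 3419, against 556, for the plastid row. For rpl2-ct the counts were 1491 and 1252, against 171, beside 11061 and 8585, against 1207. The row rps12-ct had 17226 and 10308 counts, against 2690, and no plastid row carried the name rps12. Sums over plastid rows hence count repeat reads at both copies, and in a fit that held 1 copy of each pair 80 genes were higher and 1 lower.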

How the data were processed

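Bulk RNA-seq libraries of protoplasts and of whole leaf segments of maize B73 were analysed. Per the labels and methods, the authors trimmed paired reads of 150 nt with Trim Galore 0.6.5, aligned them to AGPv4 with STAR 2.5.1b and counted reads per gene with featureCounts 2.0.1. The deposited values are raw counts per gene, without normalization. The treatment of strand and of reads that map to several places is not given in the sources used here. Leaf 1 was left out, because its copy holds no plastid row. The role groups, the marker lists (BS and MS genes of the study's table of photosynthesis genes) and the members were chosen with earlier results of these data known.

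Counts of all genes in 3 libraries were fitted in R 4.3.3 with edgeR 4.0.16 (filterByExpr, TMM factors of 0.977, 0.864 and 1.18 for protoplast 1, protoplast 2 and leaf 2, robust quasi-likelihood test, Benjamini-Hochberg adjustment over 23262 genes), with 1 residual degree of freedom. Replicates are separate pools by their labels. The residual degree of freedom comes from the protoplast pair, so no spread between leaf libraries enters the p-values. The test also draws on a prior estimated over all genes, with a median of 8.21 degrees of freedom. The SE of a log2 fold change was taken as its absolute value over the root of its F statistic. CPM are counts over the library total. On 9017 nuclear genes with both leaf libraries, 3632 genes were called with 3 libraries and 3880 with 4, and 3542 were called the same way by both, 97.5% of the first and 91.3% of the second, with 0 opposite calls. Both fits held the same protoplast libraries and leaf 2, so much of this agreement was built in. The scripts were tested on simulated data. Alternatives used limma 3.58.1 and DESeq2 1.42.0, other scalings and other filters. Scalings by plastid totals without RNA genes, single repeat copies and a fit without mitochondrial genes were added after seeing the data. Genes named are those with a standard symbol, with full values for the member with the most counts and the lowest and highest fold change of each role group, a fixed list of major genes (psbA, psbD, psaA, psaB, petA, petB, atpB, rbcL, ndhB, ndhD, ndhI, rpoB, clpP and matK), the 3 largest and 3 smallest fold changes among genes with at least 10 counts in each library, and the 5 largest shares of plastid counts. Intron rows, rps3, rps19, trnY, trnP, ZemaCp156 and mitochondrial rows were chosen after their values were seen. The nuclear ribosomal RNA rows were also picked outside these rules. Symbols come from RefSeq (assembly Zm-B73-REFERENCE-NAM-5.0) by locus tag, and no sequence is shown.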

Additional observations from a re-analysis of the deposited data

How the results depend on the processing

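The count of 93 plastid rows higher in protoplasts lay between 80 and 97 under library totals, DESeq2 size factors, DESeq2's Wald test, limma-voom, both other filters, adjusted p alone, 1 repeat copy and no mitochondrial genes. It fell to 0 with plastid totals as library sizes, to 22 with totals without rRNA and tRNA, and to 5 without rbcL too. The count of 1 lower became 6 with library totals, 2 with limma-voom, 2 with no filter, and 0, 21 and 40 with those 3 plastid totals. The median of 1.94 became 1.54 with library totals and 0.18, -0.039 and -0.80 with the plastid totals, and lay between 1.77 and 2.06 when either protoplast library was left out. The plastid totals were 899739 in protoplast 1 and 1566803 in protoplast 2. The median CPM ratio of protoplast 2 to protoplast 1 was 0.991 over plastid rows with at least 10 counts in every library. Plastid totals as sizes thus set the protoplast libraries apart for most plastid rows. The cause of the lost calls was not tested. With plastid totals rbcL also lost its call at a larger size (-3.67, adjusted p = 0.105 by edgeR, against -2.00 and 0.000770 with TMM). This scaling moves all genes down together (median -1.68, against -0.04), so sign there follows a gene's starting value. Below 0 on it were psbB -0.79, psaB -0.94, petN -1.28, atpB -0.40, ndhE -0.85, rpoB -0.70, rps15 -0.25, matK -0.55, psaA -0.0036, ndhD -0.12, ndhI -0.40, and -0.37 for ZemaCr113, -0.37 for ZemaCr120, -0.11 for ZemaCr119 and -0.11 for ZemaCr114.

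The plastid share of the library total, a log2 ratio of mean protoplast to leaf 2 of 1.45, lay between 0.91 without protoplast replicate 2 and 1.85 without protoplast replicate 1. Of the role group shares in the plastid total, those of photosystem II (0.30), photosystem I (0.46), cytochrome b6f (0.24) and tRNA (0.34) and that of rRNA (-0.30) changed sign with 1 library. Without protoplast replicate 1 and without protoplast replicate 2 they were -0.21 and 0.68 for photosystem II, -0.053 and 0.84 for photosystem I, -0.19 and 0.57 for cytochrome b6f, -0.13 and 0.69 for tRNA, and 0.18 and -1.03 for rRNA. Without rRNA and tRNA genes in the total, cytochrome b6f was at -0.00067. Rubisco stayed between -4.21 and -3.28 under these alternatives, and the share of ATP synthase between 0.96 and 1.53. No paired analysis was possible because leaf 1 holds no plastid row, so the groups share 1 replicate number. Depth limits rows with few counts, such as psbT, trnY and ndhE, and 1 leaf library limits every call.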
